A study of Mus musculus with 8 samples.

Results

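The Rab genes encode the Rab GTPases, the largest branch of the Ras family of small G proteins. They were taken as the protein-coding genes with a symbol made of Rab, a number and at most a letter and a further number. The rule found 59 genes among 21995 protein-coding genes and 54532 genes in all. Their mRNA was counted in 8 libraries from organoids of the mouse small intestine, which are epithelial structures grown from crypts without stroma or immune cells. There were 4 control libraries and 4 libraries of organoids treated with RANKL, the ligand of the receptor RANK. The methods describe mouse organoids grown in Matrigel in medium with EGF, NOGGIN and R-spondin, the condition both groups share. The methods keep all mouse lines on a C57BL/6J background. The dose and duration of RANKL, and the age and number of the mice behind these libraries, are not given for this experiment in the sources used here. The labels number the libraries 1 to 4 in each group but do not say whether they came from separate cultures, so p-values measure only the spread between these libraries.

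Each Rab protein marks a membrane compartment and cycles between a GTP-bound form, which recruits effectors that tether, move or fuse vesicles, and a GDP-bound form that is drawn off the membrane. Rab5 and its relatives act at early endosomes, the Rab4 and Rab11 groups in recycling to the plasma membrane, Rab7 and Rab9 in transport to late endosomes and lysosomes, the Rab3, Rab8 and Rab27 groups in exocytosis, and Rab1, Rab2 and Rab6 between the endoplasmic reticulum (ER) and the Golgi. In epithelial cells this traffic also carries cargo across the cell, a process called transcytosis. M cells of the gut are specialised in it, and RANKL is the signal that induces them, so the question here was whether Rab genes of these compartments differed between control and RANKL organoids.

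The libraries held 583663 to 7807298 counts in control and 613135 to 1923354 in RANKL organoids, so 1 count was worth 0.128 to 1.71 CPM (counts per 1000000 counts). Levels below are CPM with library totals adjusted by TMM normalization factors, which correct for differences in composition between libraries. The reads come from the 3′ ends of mRNA and do not scale with gene length, so changes are compared within a gene. The gene with the highest mean CPM of each compartment is shown because it has the most counts, and its rank says nothing firm about mRNA amounts between genes. Tests are edgeR's quasi-likelihood test of RANKL against control over 9971 genes that passed its filter on low counts, called at a Benjamini-Hochberg adjusted p below 0.05. Intervals cover 95% and come from the same fit. A two-sided exact permutation test of the CPM values is given beside them, and its smallest possible p with 4 against 4 libraries is 0.0286. Of 12 listed M cell markers 8 passed the filter and were called higher, 5 of them with too few control libraries at the level the filter asks for to pass without the RANKL group, so that count is a description. The summed level of all 12 was 137.7 to 182.2 CPM in control and 2176 to 2502 CPM in RANKL libraries, and the M cell marker Gp2 had no count in any library. Single genes carried most of these sums: Spib had a mean of 4.35 CPM in control and 1607 CPM in RANKL libraries, and Pglyrp1 103.2 and 325.5 CPM. Summed stem cell markers lay at 1878 to 2305 CPM in control and 1638 to 1816 CPM in RANKL libraries, without overlap. Olfm4 and Slc12a2 made up most of that sum and were not called, at means of 1162 and 679.3 CPM in control libraries. Of the 6 stem cell markers 3 were called lower and 1 higher, or 66.7%, against 25.9% of all tested genes called in either direction. Summed enterocyte, Paneth, goblet, enteroendocrine and tuft cell markers overlapped between the groups. Immune markers summed to 3.44 to 9.93 CPM and stromal markers to 11.7 to 32.7 CPM over all libraries, overlapping between groups, with Cd3e, Cd79a, Itgax and Dcn at 0. The part of these shifts in the results below was not tested, and in bulk RNA fewer cells of a type and less RNA per cell cannot be told apart.

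Of 37 tested Rab genes, 6 were called between control and RANKL organoids. Of 59 members, 57 had at least 1 count and 37 passed the filter. Of these, 29 passed it in either group alone, Rab31, Rab32, Rab28, Rab13 and Rab27b passed through the RANKL libraries only, Rab23 through the control libraries only, and Rab30 and Rab3a through both together, so counts over the tested genes are descriptions. Rab32, Rab31, Rab21 and Rab17 rose, and Rab43 and Rab7 fell, the last by a call that some alternatives below lost. The 6 called genes were 16.2% of the tested Rab genes, against 25.9% of all tested genes. These shares were not compared by a test, and without the filter their order was the other way, as given below. The 4 that rose stand against 13.6% of all tested genes called higher, and the 2 that fell against 12.4% called lower. In 5 of 37 tested Rab genes (13.5%) the control and RANKL libraries did not overlap, which was so for 24.6% of all tested genes. These were Rab32, Rab21, Rab17 and Rab43 of the called genes, and Rab28, which was not past the threshold. The median log2 fold change was 0.06 over the tested Rab genes and 0.00 over all tested genes, and the median size of the log2 fold change regardless of sign was 0.20 and 0.26. The 31 Rab genes that were not called had log2 fold changes between -0.32 and 0.46. For 19 of them the interval lay within a 1.5-fold change either way, and for the others a change of that size could not be told from none at this depth.

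**Figure D1:**
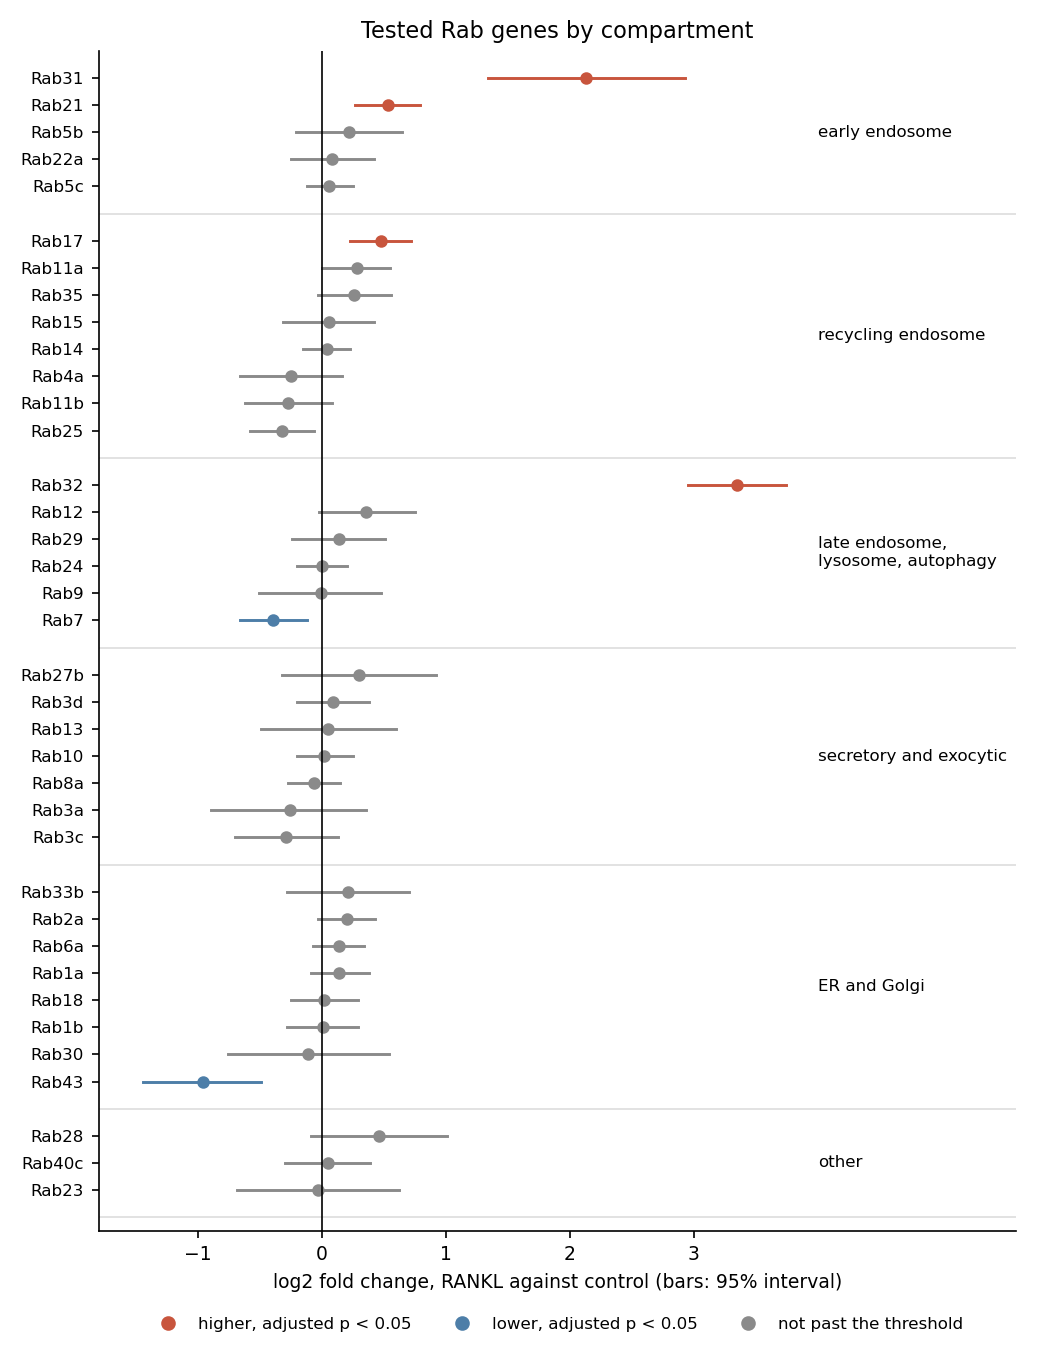
Log2 fold change of RANKL against control organoids (x axis) for the 37 tested Rab genes, grouped by the compartment each is known for; points are edgeR estimates over 4 libraries per group and bars are 95% intervals. Rab32 at 3.35 and Rab31 at 2.13 lie far to the right, Rab21, Rab17, Rab7 and Rab43 are the other coloured points, and every tested secretory Rab gene lies between -0.29 and 0.30.

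By compartment, 2 of 5 tested early endosome Rab genes rose, 1 of 8 recycling Rab genes rose, 1 of 6 Rab genes of late endosomes, lysosomes and autophagy rose and 1 fell, and 1 of 8 Rab genes of the ER and Golgi fell. None of the 7 secretory and exocytic Rab genes and none of the 3 others was called. The median log2 fold changes, against 0.00 over all tested genes, were 0.22 for early endosome, 0.05 for recycling, 0.07 for late endosome, 0.02 for secretory and 0.08 for ER and Golgi genes. With library depth as a covariate, or without control replicate 1, the early endosome median was 0.09. In the fit with the depth covariate the recycling and late endosome medians were 0.24 and 0.23. Secretory and ER and Golgi genes had 0.08 and 0.10 there, so the order of the compartments depended on the model.

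The summed level of all 59 Rab genes was 3162 to 3331 CPM in control and 3455 to 3540 CPM in RANKL libraries, with no overlap between the groups and a mean that was 7.34% higher with RANKL. Without Rab32 the sums were 3240 ± 69.4 and 3394 ± 45.2 CPM (SD, n = 4), still without overlap. How often sums of other gene sets separate in this way was not checked, so these sums are a description. Among the compartments, the sum did not overlap between groups for late endosome, lysosome and autophagy genes alone, at 381.8 to 479.7 CPM in control and 512.8 to 552.1 CPM in RANKL libraries. Rab32 carried this difference, since without it the same sums were 368.0 to 469.0 and 410.3 to 473.0 CPM.

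**Figure D2:**
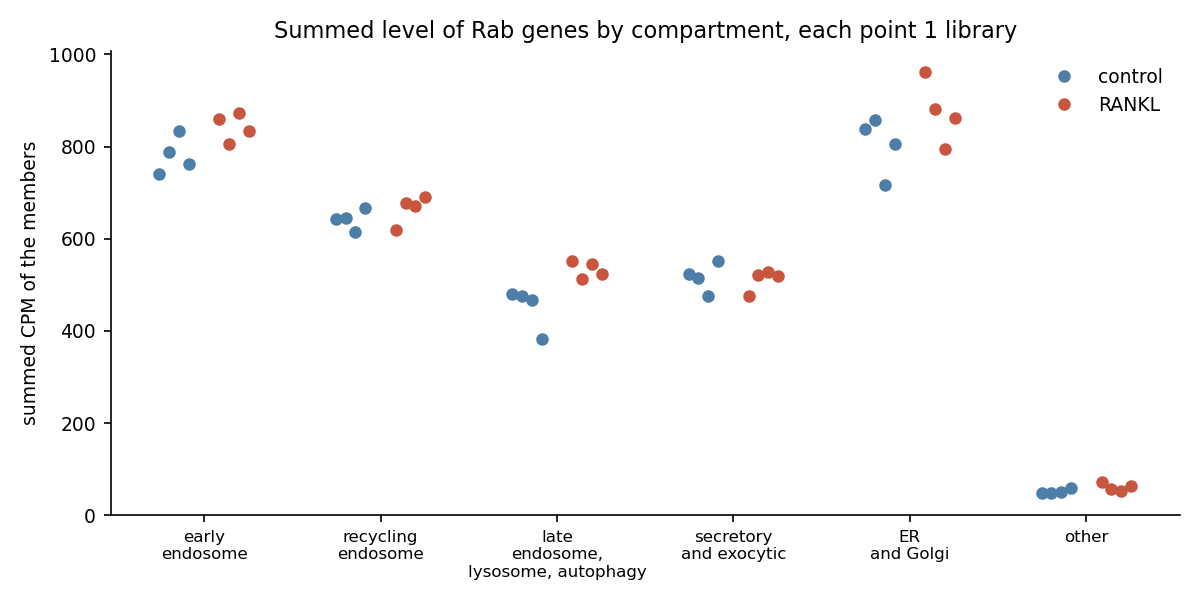
Summed CPM of all Rab genes of a compartment (y axis, from 0) in each library, control in blue and RANKL in red, 4 libraries per group and 1 point per library. The late endosome, lysosome and autophagy sums separate, with all RANKL libraries at or above 512.8 CPM and all control libraries at or below 479.7 CPM, while the other compartments overlap.

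To show where transcription of the genes that rose begins, the 250 bases before the start site of each are printed here from RefSeq on GRCm38.p6, read 5′ to 3′ on the strand of the gene. All 4 genes lie on the minus strand. The windows are chr10:10558208-10558457 for Rab32, chr17:65772753-65773002 for Rab31, chr10:115315592-115315841 for Rab21 and chr1:90967668-90967917 for Rab17. Capitals mark a match to a motif.
Rab32: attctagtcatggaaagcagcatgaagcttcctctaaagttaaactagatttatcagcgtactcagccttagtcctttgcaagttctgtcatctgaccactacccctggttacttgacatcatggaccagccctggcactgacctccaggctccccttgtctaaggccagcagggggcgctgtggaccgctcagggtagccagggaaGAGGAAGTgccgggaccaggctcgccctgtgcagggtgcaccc
Rab31: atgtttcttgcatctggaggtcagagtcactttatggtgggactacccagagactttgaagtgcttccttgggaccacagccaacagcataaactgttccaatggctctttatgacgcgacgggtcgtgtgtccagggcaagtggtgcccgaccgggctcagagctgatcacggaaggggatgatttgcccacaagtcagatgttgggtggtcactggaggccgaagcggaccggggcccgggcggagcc
Rab21: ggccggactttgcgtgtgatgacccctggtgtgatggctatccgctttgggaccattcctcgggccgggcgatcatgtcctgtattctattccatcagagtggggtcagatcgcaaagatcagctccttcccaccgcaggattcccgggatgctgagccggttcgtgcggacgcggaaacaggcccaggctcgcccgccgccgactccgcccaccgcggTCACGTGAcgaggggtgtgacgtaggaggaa
Rab17: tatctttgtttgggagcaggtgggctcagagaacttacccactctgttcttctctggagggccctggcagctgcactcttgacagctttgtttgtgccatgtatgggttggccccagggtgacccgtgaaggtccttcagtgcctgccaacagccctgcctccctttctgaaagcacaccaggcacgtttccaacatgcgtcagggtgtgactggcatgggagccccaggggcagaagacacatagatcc

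RefSeq windows were at hand for 48 of the 59 members, with 60 windows in all. Windows of 300 bases, 250 before and 50 after the start, were searched on both strands for 3 motifs chosen after these sequences had been seen. The PU box GAGGAAGT, a site of the ETS family factors PU.1 and Spi-B, was found in 3.2% of 32851 RefSeq promoters. It was found in 2 of the 60 Rab windows, those of Rab32, 43 bases before the start, and Rab2b. The palindromic E-box TCACGTGA, read by factors such as TFEB and USF, was found in 0.974% of promoters. Among the Rab windows it was found in 3, those of Rab21, 31 bases before the start, Rab24 and Rab5a. The NF-kappaB consensus site was found in 4.51% of promoters, and in 2 of the Rab windows, those of Rab15 and Rab28. Matches are strings of letters in a window, and no binding was measured. The motifs do not share letters with each other in the printed windows. RefSeq and GENCODE place the starts of Rab32 and Rab17 differently, so that the PU box of Rab32 and the whole printed window of Rab17 lie inside the GENCODE gene spans given below.

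Rab32 (ENSMUSG00000019832, chr10:10545002-10558265 on GRCm38, minus strand) showed the largest change of any tested Rab gene. The protein acts in the biogenesis of lysosome-related organelles and in the traffic of phagosomes. Its level was 10.7, 11.3, 4.81 and 13.8 CPM in control replicates 1 to 4 and 79.1, 84.0, 101.2 and 113.1 CPM in RANKL replicates 1 to 4. Every RANKL library was several times above every control library. The group means were 10.1 ± 3.79 and 94.3 ± 15.7 CPM (SD, n = 4). The fitted change was 10.2-fold with an interval of 7.75 to 13.35, and its log2 fold change was 3.35 (SE 0.19, adjusted p = 9.5e-15, exact permutation p = 0.0286). Of all tested genes, 0.532% had a larger rise, but Rab32 entered this set through the RANKL libraries only. In control, 3 libraries reached the 5.39 CPM that the filter asks of 4. Without the filter its log2 fold change was 3.30. Rab38, the closest relative of Rab32 and known from melanosomes, had no count in any library.

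Rab7, the Rab of late endosomes and of their fusion with lysosomes, was the other called gene of this compartment. Its gene lies at chr6:87999106-88045270, minus strand. Its level was 114.3, 94.2, 112.5 and 68.8 CPM in control replicates 1 to 4 and 79.1, 77.8, 87.1 and 68.7 CPM in RANKL replicates 1 to 4. Control replicate 4, the shallowest library, lay among the RANKL libraries, so the groups overlapped. The log2 fold change was -0.39 (SE 0.13, adjusted p = 0.03, exact permutation p = 0.171). This call was lost with DESeq2 (adjusted p = 0.072), with library depth as a covariate (log2 fold change -0.15, adjusted p = 0.57) and without control replicate 1 (adjusted p = 0.096) or RANKL replicate 1 (0.053), 2 (0.076) or 4 (0.13).

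The remaining late endosome, lysosome and autophagy genes gave smaller values. Rab24, which has been linked to autophagy, had the highest mean level in this group, at 282.1, 305.1, 291.2 and 239.0 CPM in control and 308.4, 283.6, 282.7 and 261.4 CPM in RANKL replicates 1 to 4. The groups overlapped, and the fitted ratio of RANKL to control was 0.999 with an interval of 0.87 to 1.15. Rab12 had a log2 fold change of 0.36 (adjusted p = 0.16), Rab29 of 0.14 and Rab9 of -0.01. The other 7 members of this group were too low to test.

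Rab31 (ENSMUSG00000056515, chr17:65651729-65772752, minus strand), which acts between the trans-Golgi network and endosomes, was higher with RANKL from a low level. It was at 2.42, 1.88, 0.76 and 6.88 CPM in control replicates 1 to 4 and at 6.46, 6.88, 13.0 and 8.24 CPM in RANKL replicates 1 to 4. Only control replicate 4, where the value rests on 4 counts, reached the RANKL range. The log2 fold change was 2.13 (SE 0.39, adjusted p = 9.4e-05, exact permutation p = 0.0571), or 4.39-fold with an interval of 2.53 to 7.61. With any 1 library left out it ran from 1.83 to 2.35. In all, 33 control and 54 RANKL counts stand behind this gene, and it passed the filter only because its level is high in the RANKL libraries, since 1 control library reached the 5.39 CPM that the filter asks of 4. Without the filter its log2 fold change was 2.08 (adjusted p = 4.9e-06).

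Rab21 (ENSMUSG00000020132, chr10:115287084-115315594, minus strand) binds integrins and acts in their uptake into early endosomes. Its level was 55.1, 51.0, 47.9 and 58.5 CPM in control replicates 1 to 4 and 90.4, 69.5, 74.1 and 74.1 CPM in RANKL replicates 1 to 4. All RANKL libraries lay above all control libraries. The rise was 1.45-fold with an interval of 1.21 to 1.73 (log2 fold change 0.53, SE 0.13, adjusted p = 0.0021, exact permutation p = 0.0286). With library depth as a covariate it was 0.45 on the log2 scale and missed the threshold (adjusted p = 0.052).

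The Rab5 genes, which drive the fusion of early endosomes, were not called. Rab5c, with the highest mean of the early endosome group, was at 628.6, 679.2, 722.7 and 612.2 CPM in control and 705.5, 672.4, 711.3 and 681.6 CPM in RANKL replicates 1 to 4. The ranges overlapped over most of their length, and the ratio was 1.04 with an interval of 0.92 to 1.19 (adjusted p = 0.66). Rab5b had a log2 fold change of 0.22 (SE 0.21, adjusted p = 0.49). Rab5a did not pass the filter, at 3.18, 2.95, 6.84 and 6.88 CPM in control and 3.23, 4.82, 6.26 and 4.94 CPM in RANKL replicates 1 to 4, which overlap. Rab22a, a close relative of Rab31, had a log2 fold change of 0.08 (SE 0.16, adjusted p = 0.76).

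**Figure D3:**
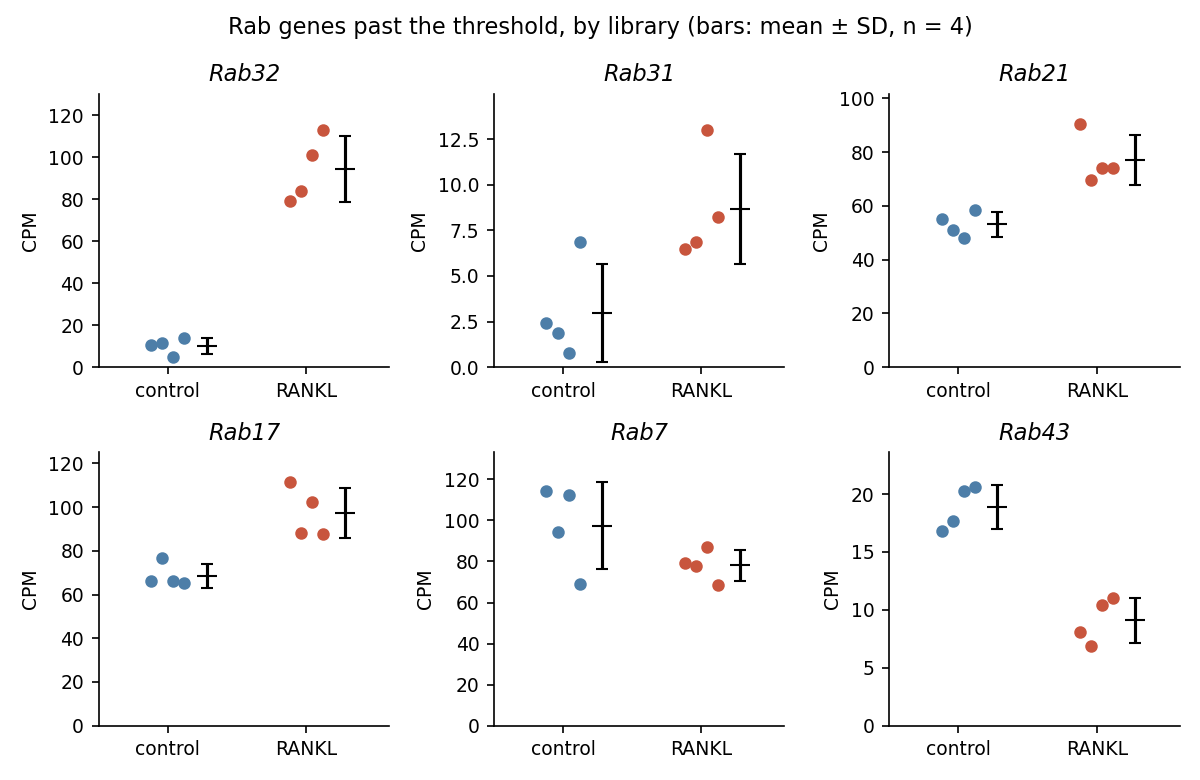
CPM in each library (y axes, each from 0 with its own scale) of the 6 Rab genes past the threshold, control in blue and RANKL in red in order of replicate number; black bars give the mean ± SD of 4 libraries. Rab32, Rab21, Rab17 and Rab43 separate the groups, while control replicate 4 at 6.88 CPM for Rab31 and at 68.8 CPM for Rab7 lies within the RANKL range.

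Among recycling endosome genes, Rab17 rose. Rab17 (ENSMUSG00000026304, chr1:90958133-90969661, minus strand) is found mainly in epithelial cells, where it acts in apical recycling and transcytosis. It was at 66.3, 76.7, 66.1 and 65.3 CPM in control replicates 1 to 4 and at 111.4, 88.1, 102.2 and 87.9 CPM in RANKL replicates 1 to 4. The groups did not overlap. The rise was 1.39-fold with an interval of 1.17 to 1.65 (log2 fold change 0.48, SE 0.12, adjusted p = 0.0035, exact permutation p = 0.0286).

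Rab25, an epithelial member of the Rab11 group, pointed the other way without passing the threshold. It was at 78.8, 75.7, 92.0 and 91.1 CPM in control and 54.9, 77.1, 70.9 and 59.3 CPM in RANKL replicates 1 to 4, where only RANKL replicate 2 reached the control range. Its log2 fold change was -0.32 (SE 0.13, adjusted p = 0.067, exact permutation p = 0.0571), and with any 1 library left out it ran from -0.40 (adjusted p = 0.047, without RANKL replicate 2) to -0.25 (adjusted p = 0.16, without control replicate 3), with 0.23 as the highest adjusted p (without RANKL replicate 4). Rab11a, which directs cargo to the apical membrane, was at 75.9, 81.0, 57.3 and 70.5 CPM in control and 87.2, 82.6, 71.4 and 104.9 CPM in RANKL replicates 1 to 4. These ranges overlapped, and its log2 fold change was 0.28 (SE 0.14, adjusted p = 0.14).

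Rab14, which acts between endosomes and the Golgi, had the highest mean of the recycling group. It was at 255.5, 260.6, 249.6 and 270.0 CPM in control and 266.4, 259.5, 269.6 and 263.6 CPM in RANKL replicates 1 to 4. The RANKL values lay within the control range, and the ratio was 1.03 with an interval of 0.90 to 1.17 (adjusted p = 0.81). The other tested recycling genes were Rab35 at a log2 fold change of 0.26, Rab15 at 0.06, Rab4a at -0.25 and Rab11b at -0.27, none past the threshold. Rab4b was too low to test.

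No secretory or exocytic Rab gene among the 7 tested passed the threshold in edgeR's test, and none of these 7 had groups without overlap. Rab8b, of the same group, did not pass the filter. Its groups did not overlap, and it was called higher without the filter, as given below. Rab8a, which serves apical exocytosis and had the highest mean of the group, was at 253.6, 247.9, 223.8 and 268.3 CPM in control and 200.2, 227.1, 254.5 and 256.5 CPM in RANKL replicates 1 to 4. The groups overlapped, and the ratio was 0.962 with an interval of 0.83 to 1.11 (adjusted p = 0.73). Rab3d, a Rab of zymogen and mucous granules, was at 43.9, 43.5, 49.9 and 49.9 CPM in control and 42.0, 48.9, 56.3 and 45.6 CPM in RANKL replicates 1 to 4. The ratio was 1.06 with an interval of 0.87 to 1.30 (adjusted p = 0.69). Rab10, a Rab of basolateral and GLUT4 vesicle traffic, had a log2 fold change of 0.02, Rab27b of 0.30 with an interval from 0.80-fold to 1.89-fold, Rab13 of 0.05, Rab3a of -0.26 and Rab3c of -0.29. Rab27a, which docks secretory granules, did not pass the filter, at 3.44, 3.49, 2.53 and 8.60 CPM in control and 4.84, 7.57, 7.30 and 2.75 CPM in RANKL replicates 1 to 4.

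Rab43 (ENSMUSG00000030055, chr6:87788853-87812164, minus strand), which acts at the Golgi, was the called gene of the ER and Golgi group. It was at 16.8, 17.7, 20.3 and 20.6 CPM in control replicates 1 to 4 and at 8.07, 6.88, 10.4 and 11.0 CPM in RANKL replicates 1 to 4. All RANKL libraries lay below all control libraries. The ratio was 0.513 with an interval of 0.37 to 0.71 (log2 fold change -0.96, SE 0.23, adjusted p = 0.0023, exact permutation p = 0.0286). Rab43 shares exonic sequence on its own strand with Gm45140, which had 1 count in all.

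Rab6a, which runs retrograde transport to and within the Golgi, had the highest mean of this group, at 283.9, 315.8, 239.5 and 266.6 CPM in control and 327.7, 313.2, 281.6 and 301.5 CPM in RANKL replicates 1 to 4. The groups overlapped, with a ratio of 1.10 and an interval of 0.95 to 1.27 (adjusted p = 0.36). The other tested genes of the group had log2 fold changes from -0.11 for Rab30 to 0.21 for Rab33b, among them Rab1a and Rab1b of ER to Golgi transport at 0.14 and 0.01, and Rab2a at 0.20.

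Of the remaining tested genes, Rab40c, with the highest mean, was at 29.0, 31.1, 38.5 and 29.2 CPM in control and 46.8, 29.6, 31.8 and 31.9 CPM in RANKL replicates 1 to 4, and its log2 fold change was 0.05 (SE 0.17, adjusted p = 0.87). Rab28, shown because its groups did not overlap, was at 9.80, 8.05, 5.32 and 6.88 CPM in control and at 11.3, 10.3, 11.5 and 10.4 CPM in RANKL replicates 1 to 4. Its groups did not overlap, yet the ratio of 1.37 had an interval of 0.94 to 2.01 (adjusted p = 0.23). Rab23, which acts in cilia, had a log2 fold change of -0.03.

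The 22 members that were not tested had mean levels of at most 5.88 CPM, and Rab38 and Rab9b had no count at all. Without the filter on low counts 8 of 57 Rab genes (14.0%) were called, against 10.8% of 23836 genes, and 6 (10.5%) were called higher, against 5.24%. The Rab share lay above that of all genes there and below it with the filter, but the backgrounds are unlike. The 23836 are all genes with at least 1 count, protein-coding or not, and 2578 of them were called, against 2587 of 9971 with the filter. Of the members that were not tested, 2 were called higher, Rab42 and Rab8b, which are named here because of their values. Rab42 had 4, 1, 1 and 0 counts in control and 3, 13, 9 and 13 counts in RANKL replicates 1 to 4, or at most 0.509 CPM against at least 4.69 CPM. Rab8b, a relative of Rab8a in the secretory group, had 22, 11, 8 and 1 counts in control and 4, 11, 10 and 18 counts in RANKL replicates 1 to 4. Its level was at most 2.95 CPM in control and at least 5.22 CPM in RANKL libraries. Neither gene overlapped between the groups, and without the filter the log2 fold change was 3.95 for Rab42 (adjusted p = 5.1e-09) and 1.46 for Rab8b (adjusted p = 0.004).

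The balance between related Rab genes was compared within each library as the log2 ratio of their counts, with 0.5 added to each count. Of 13 listed pairs, 5 had both genes tested, and none passed the exact permutation test after adjustment over the 5. A pair that alone reached the smallest possible p could not go below an adjusted p of 0.143, so this says nothing on whether the ratios differed. For Rab22a over Rab31 the ratio was 2.76 to 5.52 in control and 1.87 to 2.51 in RANKL libraries, without overlap, and the difference was -1.90 (adjusted p = 0.143, unadjusted exact permutation p = 0.0286). This pair was compared only because Rab31 passed the filter through the RANKL libraries, and Rab31 had 19, 7, 3 and 4 counts in control replicates 1 to 4. With Rab22a at a log2 fold change of 0.08, the ratio repeats the change of Rab31 and is no separate result. Rab11a over Rab25 had a ratio of -0.68 to 0.10 in control and 0.01 to 0.82 in RANKL libraries, and the difference was 0.65 (adjusted p = 0.143, unadjusted exact permutation p = 0.0571). For Rab11a over Rab11b the difference was 0.75, for Rab1a over Rab1b 0.14 and for Rab5b over Rab5c 0.05, with adjusted exact permutation p-values of 0.19, 0.714 and 0.943.

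Genes that act on Rab proteins were followed in 4 lists. Of the tested genes, 30% of the prenylation, escort and GDP dissociation inhibitor list, 33.3% of the exchange factors, 29% of the GTPase-activating proteins and 19.6% of the effectors and tethers were called, against 25.9% of all tested genes, and these shares were not compared with that of the Rab genes by a test. Newly made Rab proteins are prenylated with the help of an escort protein, and GDP dissociation inhibitors then extract and store them. Of 10 tested genes of these steps, 3 rose and 0 fell, with a median log2 fold change of -0.03. Chml, one of the Rab escort proteins, rose from 14.6 ± 3.86 to 37.7 ± 9.73 CPM (SD, n = 4), a log2 fold change of 1.41 (adjusted p = 3.1e-06, edgeR). Its relative Chm, at a log2 fold change of -0.36 (SE 0.23), was not called. Arl6ip5, a PRA1 family protein, rose by 0.48 on the log2 scale (adjusted p = 0.0076), and the GDP dissociation inhibitor Gdi2 by 0.27 (adjusted p = 0.041).

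Exchange factors load Rab proteins with GTP. Of 33 tested, 6 rose and 5 fell, with a median log2 fold change of 0.05. The largest rises were Rin2, which acts on Rab5, with a log2 fold change of 1.02 (adjusted p = 6.9e-06), Madd, which acts on Rab3, with 0.83, the TRAPP subunit Trappc1 with 0.77 and Dennd6a with 0.72. Among the genes that fell were Dennd4c at -0.87, Ccz1 at -0.58 and Ric1 at -0.49. Ccz1 is a subunit of the exchange factor of Rab7, and its level was 160.3 ± 26.0 CPM in control and 107.0 ± 19.3 CPM in RANKL libraries (SD, n = 4). Its partners Mon1a, at -0.33, and Mon1b, at 0.58, were not called. Hps1 and Hps4, which together form the exchange factor of Rab32, had log2 fold changes of 0.08 and 0.21 and were not called. These partners, and Chm above, were named after values were seen.

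GTPase-activating proteins switch Rab proteins off. Of 31 tested, 4 rose and 5 fell, with a median log2 fold change of -0.03. Tbc1d13 rose from 168.5 ± 19.0 to 305.2 ± 13.3 CPM (SD, n = 4), a log2 fold change of 0.85 (adjusted p = 1.5e-07, edgeR). Tbc1d4, also known as AS160 and best known from GLUT4 vesicles, rose by 0.87 on the log2 scale, Tbc1d2b by 0.83 and Tbc1d10b by 0.78. The largest falls were Tbc1d22b at -1.16, Tbc1d12 at -0.96, Tbc1d31 at -0.62 and Tbc1d15, which acts on Rab7, at -0.51.

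Effectors and tethers bind the active form. Of 51 tested, 8 rose and 2 fell, with a median log2 fold change of 0.00. Melanophilin (Mlph), the effector that links Rab27a to a myosin motor, rose from 53.8 ± 11.4 to 137.9 ± 14.5 CPM (SD, n = 4), a log2 fold change of 1.44 (adjusted p = 2.5e-10, edgeR), although Rab27a itself was too low to test. Rab11fip4, an effector of Rab11, had a log2 fold change of 1.26 (adjusted p = 0.0092, edgeR) at a mean of 3.66 CPM in control and 6.73 CPM in RANKL libraries. Its groups overlapped, and it rests on 42 control and 38 RANKL counts. Whether it or other genes of these 4 lists passed the filter through 1 group alone was not checked. Vps39 and Vps18, subunits of the HOPS complex that tethers late endosomes and lysosomes, rose by 1.17 and 1.12 on the log2 scale (adjusted p = 8.1e-05 and 1.2e-06). The other 4 HOPS subunits of the list, named after values were seen, were not called, at 0.00 for Vps11, 0.22 for Vps16, 0.00 for Vps33a and -0.00 for Vps41. Mical1 at -0.55 and Uso1, a tether of ER to Golgi vesicles, at -0.36 were the genes that fell.

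**Figure D4:**
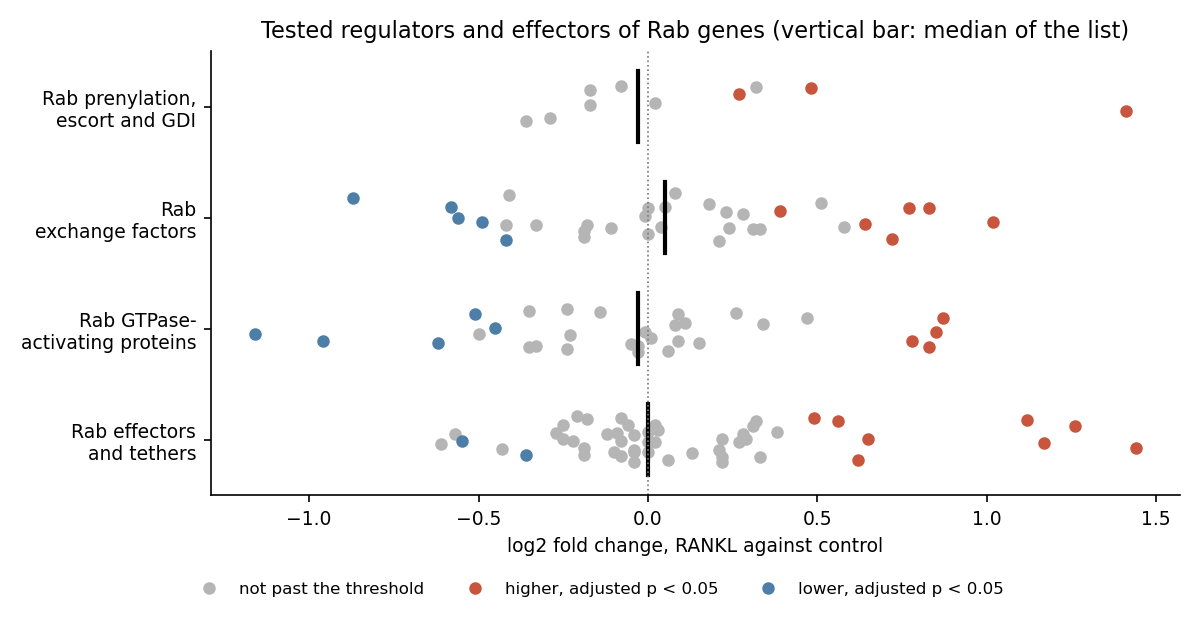
Log2 fold change of RANKL against control organoids (x axis) for the tested genes of 4 lists of Rab regulators and effectors, 1 point per gene, scattered vertically for sight only; black bars are list medians between -0.03 and 0.05. Coloured points passed the threshold, with Mlph at 1.44 and Chml at 1.41 farthest to the right and Tbc1d22b at -1.16 farthest to the left.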

How the data were processed

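3′ mRNA sequencing (QuantSeq forward kit, single reads of 50 bases) covered 4 control and 4 RANKL libraries, grouped by the sample labels. The authors trimmed reads with BBDuk, removed abundant sequences with bowtie2, aligned to GRCm38 (mm10) with STAR and counted reads by strand with featureCounts on Ensembl release 94 genes. The deposited values are raw counts per gene. The methods name no removal of PCR copies of reads. Intervals come from the fit and cover only the spread between these libraries. Identifiers were matched to GENCODE M21 for symbols and coordinates (54495 of 54532). RefSeq promoters are on GRCm38.p6.

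Counts were fitted with edgeR 4.0.16 (R 4.3.3; TMM factors, its expression filter, quasi-likelihood test, Benjamini-Hochberg adjustment). A standard error is the log2 fold change divided by the square root of F. Exact permutation tests used 70 assignments. A chi-square of counts per degree of freedom was 2.31 to 11.9 for pairs of control libraries and 1.25 to 2.6 for pairs of RANKL libraries. No pair was merged. The value also depends on depth, so it cannot show whether the libraries of a group came from separate cultures. Same-numbered libraries did not deviate together. Scripts were tested on simulated data. Alternatives were DESeq2 1.42.0, limma 3.58.1, other scalings and filters, depth as a covariate, a replicate block, stricter thresholds and each library left out.

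Values in every library are given for called Rab genes with a mean CPM of 5 or more, the highest-mean gene of each compartment, and Rab5a, Rab7, Rab11a, Rab17, Rab25, Rab27a and Rab3d. Rab28, Rab42 and Rab8b were added after their values were seen. Up to 4 genes per list and direction are named at the same mean, and a few listed genes are not reported here. The members, compartments, lists and pairs were chosen with earlier results of these data known. Of the listed regulators, 2 names were not gene symbols of the annotation. The single-cell data of the study were not analysed here.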

Additional observations from a re-analysis of the deposited data

Results flagged for a closer look

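In 3 of 34 groups of 4 libraries, the highest or lowest value of a described Rab gene stood apart from the other 3 by more than Dixon's 95% limit, where chance flags about 1 in 20, or 1.7 groups. Rab17 was at 76.7 CPM in control replicate 2, with the next value at 66.3 CPM, below all RANKL libraries. Rab27a was at 8.60 CPM in control replicate 4, the shallowest library, with the next value at 3.49 CPM. Rab40c was at 46.8 CPM in RANKL replicate 1, with the next value at 31.9 CPM. Why these libraries stood apart was not tested.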

How the results depend on the processing

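Of 302 alternatives for single Rab genes and pairs, 293 kept their side of the threshold, 8 lost a call and 1 gained one. The pairs among them had no call to lose and could hardly gain one, as given above. Their staying on 1 side therefore says nothing on how firm the results are. No called value changed sign. In 9 alternatives the sign changed without a call, for Rab40c, Rab8a, Rab1a over Rab1b and Rab5b over Rab5c, at sizes of at most 0.07, and Rab24, at a ratio of 0.999, took either sign. Rab32, Rab31, Rab17 and Rab43 kept their calls wherever they passed the filter at an adjusted p of 0.05. Of the 2 Rab genes called lower, only Rab43 was left with DESeq2's Wald test, with library depth as a covariate and at an adjusted p of 0.01. The same held with the replicate block (Rab7 at -0.32, adjusted p = 0.053). With at least 10 counts in every library (24 Rab genes tested) only Rab7 was left, as Rab43 had as few as 5 counts in a library. At a fold of at least 2, 0 were left. Of the 4 called higher, 2 were left with at least 10 counts in every library (Rab17 and Rab21) and 2 at a fold of at least 2 (Rab31 and Rab32). Over all genes 1636 were called at an adjusted p of 0.01 and 577 at a fold of at least 2. With depth as a covariate the median log2 fold change was 0.24 for recycling, 0.23 for late endosome and 0.09 for early endosome genes. With 1 library left out, 5 Rab genes were higher, as Rab8b joined, 1 to 2 were lower, and 1853 to 2601 genes were called in all. The cause was not tested where no construction shows it. The replicate numbers did not pair the libraries (correlations of deviations -0.0312 to 0.0984, and 2 of 4 correlated best with their own number). Control libraries held 2.81 times the counts of RANKL libraries in all, so depth and group cannot be fully told apart.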
